A study of Arabidopsis thaliana with 8 samples.

Results

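The transcripts described here are 237 probe sets that were at least 2-fold brighter in plants with the lhp1-4 mutation than in matched plants without it, both where BPC4 and BPC6 were intact and where both were mutated. They were selected on measured values: the mean log2 intensity had to be at least 1 higher in lhp1-4 than in wild type, at least 1 higher in lhp1-4 bpc4 bpc6 than in bpc4 bpc6, and less than 0.5 higher in bpc4 bpc6 than in wild type. They make up 1.04% of the 22716 probe sets tested. All 4 genotypes were Arabidopsis thaliana of accession Columbia, namely wild type, the single mutant lhp1-4, the double mutant bpc4 bpc6 and the triple mutant lhp1-4 bpc4 bpc6. Untreated shoots were harvested at 18 days from greenhouse plants grown at 20 °C, 35% humidity and 18 h of light, and each genotype had 2 biological replicates, each a pool of 6 plants hybridised to 1 array. The control of the triple mutant thus carried the bpc4 bpc6 lesions itself, whereas the control of lhp1-4 carried none. Age was the same in all groups, and the stage of development the plants had reached is not given, so genotype and stage cannot be told apart. In whole shoots, more cells of a type and more RNA per cell cannot be told apart either.

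LHP1 is a chromodomain protein that binds histone H3 trimethylated on lysine 27, the mark placed by Polycomb repressive complex 2, and it helps to keep marked genes silent. Plants that lack it are known for early flowering, small stature and curled leaves. BASIC PENTACYSTEINE (BPC) proteins bind GA-repeat elements in DNA, and the title of the study names BPC6 as a recruiter of LHP1 to such elements. The comparison described here is the lhp1-4 effect on RNA levels with and without BPC4 and BPC6. RNA levels do not measure binding of LHP1 to DNA, so recruitment was not tested. The sources used here do not pair probe sets with genes. The members are therefore identified by their array identifiers, no role or sequence is given for them, and the transcripts of the mutated genes and the markers of shoot tissue were not analysed here.

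Median intensities over all probe sets lay between 54.7 and 58.3 on the 8 arrays. Among the members the median on single arrays was 27.3 and 25.9 in wild type, 27.8 and 23.8 in bpc4 bpc6, 99.1 and 82.6 in lhp1-4, and 137 and 155 in the triple mutant. Both genotypes without the lhp1-4 mutation were low and alike in this respect, lhp1-4 was higher on both arrays, and the triple mutant was higher still on both. In 5007 probe sets every deposited value lay between 3 and 10, and it stayed unsettled whether these were dim values or bright values divided by 1000. For the other 17709 probe sets, called of settled level here, the same medians ran from 104 to 110.

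**Figure D1:**
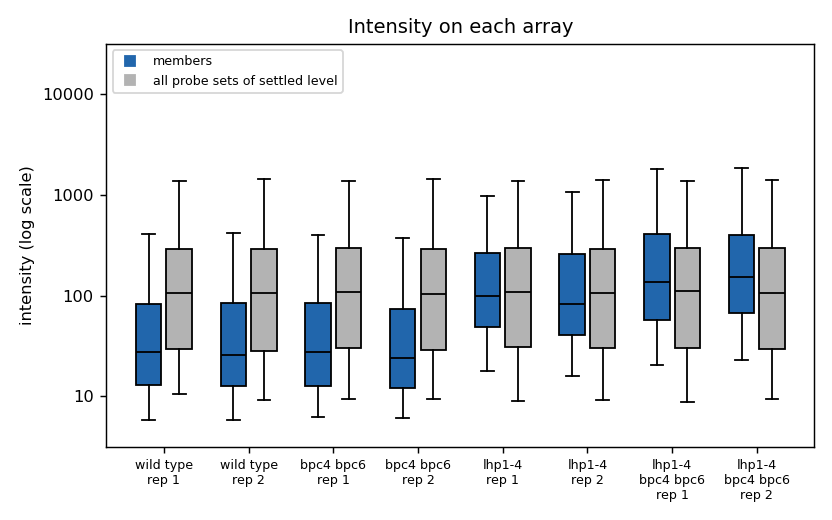
Intensity on a log scale on each of the 8 arrays, for the 237 members and for the 17709 probe sets of settled level, without the 5007 that read between 3 and 10 on every array; boxes span the quartiles, lines mark medians and whiskers reach the 5th and 95th percentiles of probe sets. The members lie below these probe sets in wild type and bpc4 bpc6, with medians of 23.8 to 27.8, and above them in the triple mutant, with medians of 137 and 155.

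Most members were dim where LHP1 was present. In wild type 132 of the 237 had a mean intensity under 30, or 55.7%. The share was 25.6% of the probe sets of settled level and 42.0% of all 22716 when the 5007 unsettled ones are taken as they stand. In lhp1-4 36 members were under 30, and in the triple mutant 22. At the other end, 52 members reached 100 in wild type, 47 in bpc4 bpc6, 110 in lhp1-4 and 150 in the triple mutant. The range in wild type ran from 4.23 to 3702, and 4 members were at 1000 or more there. These levels entered the rule and are given as a description.

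**Figure D2:**
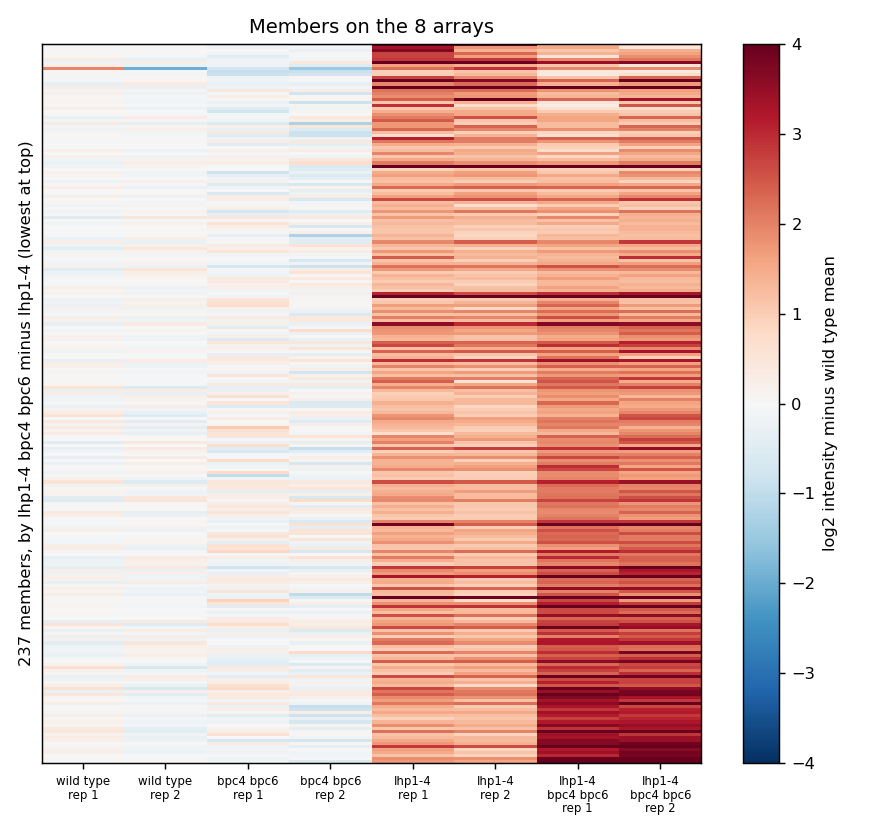
Log2 intensity of each of the 237 members minus its wild type mean, 1 row per member and 1 column per array, with rows in order of the difference between triple mutant and lhp1-4; colours saturate at 4 and -4. Wild type columns centre on 0 by construction, and bpc4 bpc6 columns lie near 0 in most rows, with means more than 0.5 below wild type in 22. The lhp1-4 and triple mutant columns are positive throughout, and the triple mutant exceeds lhp1-4 in 189 of the 237 rows.

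The median log2 difference of the members was 1.42 between lhp1-4 and wild type, with quartiles of 1.16 and 1.90, and 2.1 between triple mutant and bpc4 bpc6, with quartiles of 1.51 and 2.84. Over all probe sets these medians were -0.07 and -0.05. Both differences were at least 2 in 43 members, at least 3 in 9 and at least 4 in 4. In all 237 members both lhp1-4 arrays lay above both wild type arrays and both triple mutant arrays lay above both bpc4 bpc6 arrays, a pattern present in 12.3% of all probe sets. The gap between the lower mutant array and the higher control array was at least 1 on the log2 scale in 148 members for lhp1-4 over wild type and in 195 for triple mutant over bpc4 bpc6. With limma, 198 members were called higher in lhp1-4 than in wild type at a Benjamini-Hochberg adjusted p under 0.05, where 3.53% of all probe sets were, and 227 were called higher in the triple mutant than in bpc4 bpc6, where 10.5% were. Both calls applied to 196 members and to 2.64% of all probe sets. The rule used these contrasts, so the counts describe the members and are no independent test. A call depends on the size of a difference as well as on its standard error, whose median was 0.20 for both contrasts.

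Of the 494 probe sets that were at least 2-fold higher in lhp1-4 than in wild type the members were 48.0%, and of the 972 that were at least 2-fold higher in the triple mutant than in bpc4 bpc6 they were 24.4%. Across members both differences, which share no array, correlated at Pearson's r = 0.58 and Spearman's rho = 0.52 (n = 237 probe sets, which are not independent replicates and were cut off at 1 on both axes).

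**Figure D3:**
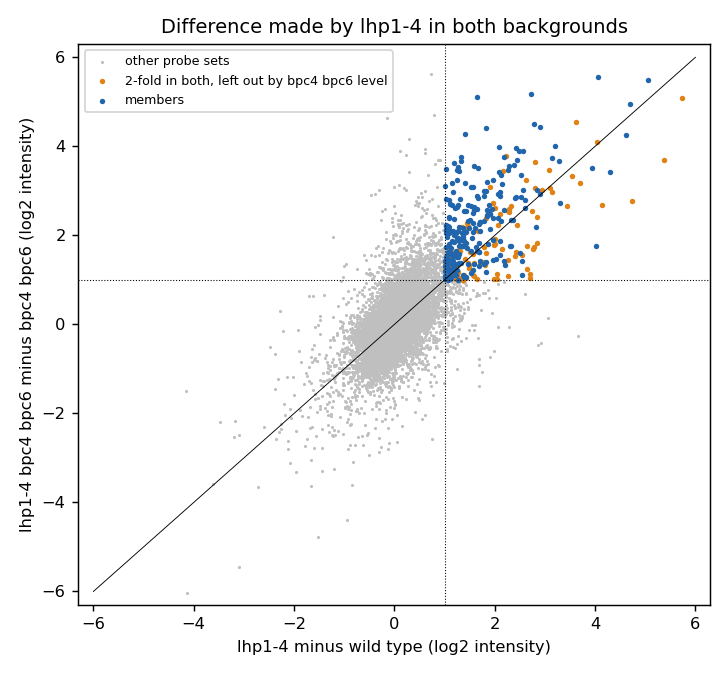
Log2 difference between lhp1-4 and wild type (horizontal) and between triple mutant and bpc4 bpc6 (vertical) for each probe set tested, with the 237 members in blue, the 101 probe sets that the condition on bpc4 bpc6 left out in orange, dotted lines at 1 and a line of equal differences. Of the members 192 lie above the line of equality.

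The member with the largest difference common to both backgrounds was 246380_AT. Its intensities were 16.2 and 16.1 in wild type, 411 and 695 in lhp1-4, 14.7 and 15.0 in bpc4 bpc6, and 458 and 971 in the triple mutant. Control arrays hardly differed, whereas the mutant arrays of lhp1-4 and of the triple mutant overlapped each other. The log2 difference was 5.05 ± 0.37 (SE, n = 2 arrays per genotype) over wild type and 5.49 ± 0.37 over bpc4 bpc6.

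Probe set 256597_AT followed, at 71.9 and 86.5 in wild type, 1886 and 2232 in lhp1-4, 78.9 and 51.7 in bpc4 bpc6, and 1794 and 2169 in the triple mutant. Here too lhp1-4 and the triple mutant overlapped, at 26.0-fold over wild type and 30.9-fold over bpc4 bpc6. The triple mutant minus lhp1-4 was -0.06, with a 95% interval from -0.58 to 0.46. The next 8 members in this order had mean intensities of 4.73 to 27.6 in wild type, 41.5 to 393 in lhp1-4, 4.58 to 32.5 in bpc4 bpc6 and 52.1 to 842 in the triple mutant. Their log2 differences were 2.91 to 4.62 over wild type and 3.42 to 5.55 over bpc4 bpc6.

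**Figure D4:**
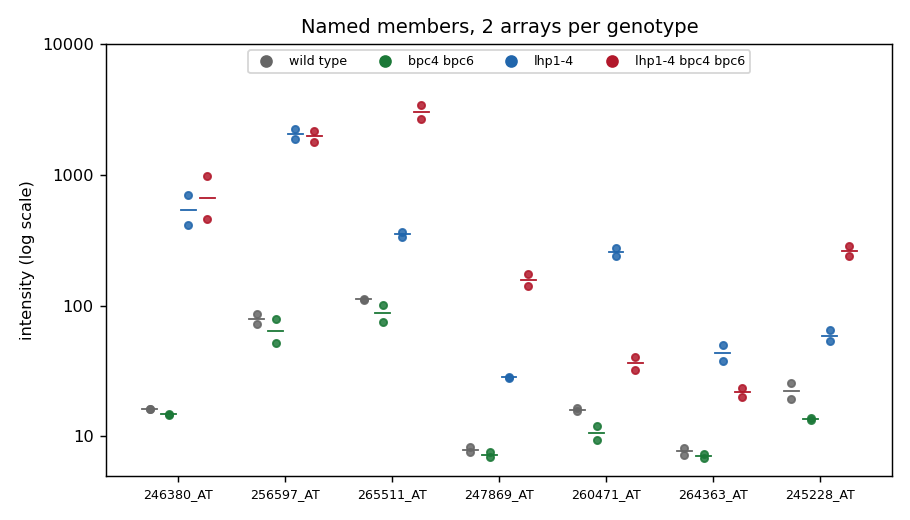
Intensity on a log scale of the 7 named members on each array (points) with the mean per genotype on the log scale (lines). The first 2 overlap in lhp1-4 and the triple mutant, 265511_AT, 247869_AT and 245228_AT are higher in the triple mutant, and 260471_AT and 264363_AT are lower there than in lhp1-4.

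Replicates of a genotype differed more in the members than in the array as a whole. The array as a whole includes the 5007 probe sets of unsettled level, which hold no member, and was not matched to the members for intensity. The absolute log2 difference between the replicates of wild type had a median of 0.26 in the members and 0.15 over all probe sets. The same medians were 0.20 and 0.10 for lhp1-4, 0.23 and 0.11 for bpc4 bpc6, and 0.27 and 0.14 for the triple mutant. Replicates were over 1 apart in at least 1 genotype in 30 members. The widest wild type pair was that of 260101_AT, which was picked out after its values were seen. It stood at 135 and 8.98 in wild type, 159 and 263 in lhp1-4, 20.3 and 12.7 in bpc4 bpc6, and 132 and 130 in the triple mutant. Wild type replicate 1 thus lay above both triple mutant arrays and below both lhp1-4 arrays.

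Part of the members depends on how the deposited scale was read. Intensities of 1000 or more appear to be stored divided by 1000, and each value between 3 and 10 can in principle be read both ways. In 156 members each value could be read on its own and none was scaled. In 63 at least 1 value was settled by its closeness to other arrays of the same probe set, or 26.6% against 10.7% of all probe sets, and a further 18 held a scaled value that was read on its own. No member was among the 5007 probe sets whose level could not be settled.

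Whether the members differed further when BPC4 and BPC6 were lost besides LHP1 was asked by comparing the triple mutant with lhp1-4. In 67 members the triple mutant was called higher by limma, or 28.3%, where 2.18% of all probe sets were, and in 3 it was called lower, where 1.13% were. The median log2 difference was 0.56 over the members and -0.01 over all probe sets, and it was positive in 189 members. Both triple mutant arrays lay above both lhp1-4 arrays in 157 members, against 21.3% of all probe sets, and below them in 19, against 25.3%. The rule used the means of all 4 genotypes, so this contrast is not independent of it, and these counts describe the members.

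Among the 67 the difference ran from 0.44 to 3.11 on the log2 scale, with a median of 1.23. Their median intensity was 24.6 in wild type, 22.7 in bpc4 bpc6, 74.9 in lhp1-4 and 188 in the triple mutant. In 58 of them no value had been scaled. Among the 167 members with no call in either direction 82 had a 95% interval that lay between -1 and 1, and the interval of the other 85 included a difference of 2-fold or more. The count of 67 was 8 without lhp1-4 replicate 2, 18 without lhp1-4 replicate 1, and 25 and 28 without triple mutant replicates 1 and 2.

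The largest excess of the triple mutant was that of 265511_AT. It stood at 110 and 113 in wild type, 367 and 333 in lhp1-4, 101 and 75.5 in bpc4 bpc6, and 3430 and 2656 in the triple mutant. Wild type and bpc4 bpc6 lay close together, lhp1-4 lay above both and the triple mutant above all others, and the triple mutant was 8.63-fold above lhp1-4, a log2 difference of 3.11 ± 0.17 (limma adjusted p = 0.00164). On the values as deposited its sign was the opposite, at -6.86, so its direction depends on restoring the scale.

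Probe set 247869_AT was dim in wild type, at 8.32 and 7.57, and in bpc4 bpc6, at 6.95 and 7.59. It reached 28.7 and 27.9 in lhp1-4 and 140 and 173 in the triple mutant, a log2 difference of 2.46 ± 0.12 (limma adjusted p = 0.000994) between the last pair. The replicates of each genotype lay close together, and the triple mutant and lhp1-4 arrays did not overlap. The next 3 members of this order had similar profiles, with mean intensities of 6.93 to 13.4 in wild type, 16.4 to 33.6 in lhp1-4 and 74.3 to 164 in the triple mutant.

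The opposite order was seen most clearly in 260471_AT. This probe set stood at 16.4 and 15.6 in wild type, 275 and 241 in lhp1-4, 12.1 and 9.34 in bpc4 bpc6, and 40.6 and 32.2 in the triple mutant. It was thus far higher in lhp1-4 than in any other genotype, and the triple mutant was intermediate, with a log2 difference from lhp1-4 of -2.83 ± 0.17 (limma adjusted p = 0.00177).

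Probe set 264363_AT had 8.14 and 7.22 in wild type, 49.8 and 38.0 in lhp1-4, 6.85 and 7.35 in bpc4 bpc6, and 20.0 and 23.6 in the triple mutant. It showed the same order with a smaller step, -1.004 ± 0.16 (limma adjusted p = 0.0237). That call ended without either lhp1-4 array, at adjusted p = 0.118 and 0.068, and without either triple mutant array, at 0.0985 and 0.0651. The remaining member called lower had mean intensities of 14.9 in wild type and 7.95 in bpc4 bpc6, with 30.5 in lhp1-4 and 19.6 in the triple mutant.

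**Figure D5:**
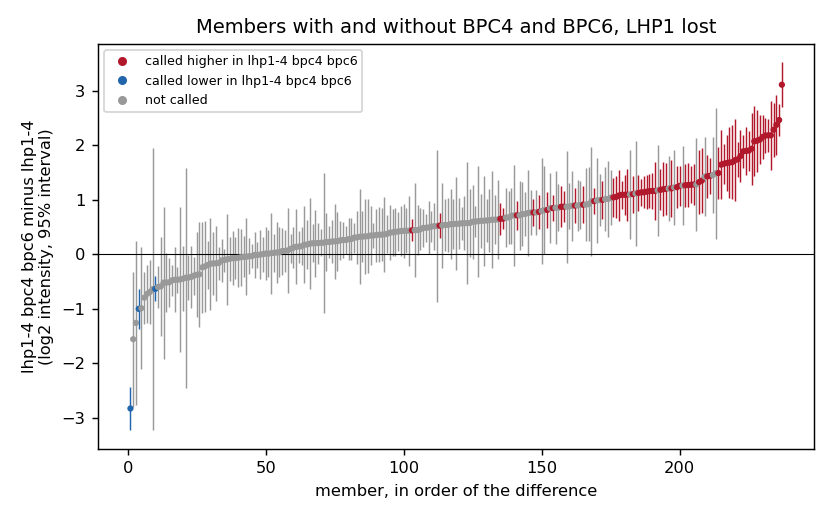
Log2 difference between triple mutant and lhp1-4 for each of the 237 members in increasing order (points) with its 95% interval from limma (lines); colours mark the 67 members called higher and the 3 called lower in the triple mutant. The values run from -2.83 to 3.11 and most lie above 0.

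The lhp1-4 difference was larger without BPC4 and BPC6 than with them in 192 of the 237 members. This is the interaction, the difference between triple mutant and bpc4 bpc6 minus that between lhp1-4 and wild type, and its median was 0.52 over the members and 0.02 over all probe sets. Limma called a positive interaction in 39 members, or 16.5%, where 1.54% of all probe sets were called, and a negative one in 1, or 0.422%, where 0.792% were. The interaction was within 0.5 of 0 in 101 members, over 1 in 66 and under -1 in 3. Of the 197 members without a call 71 had a 95% interval that lay between -1 and 1. As the rule used both differences, these counts too describe the members.

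All 39 members with a positive interaction call were also called higher in the triple mutant than in lhp1-4. Their median log2 difference was 1.35 between lhp1-4 and wild type and 3.20 between triple mutant and bpc4 bpc6. In 31 of them bpc4 bpc6 was below wild type, with a median log2 difference of -0.17 over the 39. The other 28 members called higher in the triple mutant had bpc4 bpc6 at a median of 0.24 above wild type. The interaction equals the triple mutant minus lhp1-4 difference with the bpc4 bpc6 minus wild type difference subtracted. Among members called higher in the triple mutant, an interaction call therefore favours a low bpc4 bpc6 level by definition. The split is given as a description. The count of 39 dropped to 3 when lhp1-4 replicate 2 was left out and to 11 when lhp1-4 replicate 1 was. It was 12 without the first and 19 without the second triple mutant array, 22 without the first and 14 without the second bpc4 bpc6 array, and 16 without the first wild type array.

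Interaction values were highest in 265511_AT, at 3.47 ± 0.24 (limma adjusted p = 0.00487), and in 245228_AT, at 2.87 ± 0.24 (limma adjusted p = 0.00801). The latter stood at 25.6 and 19.4 in wild type, 64.5 and 53.8 in lhp1-4, 13.8 and 13.3 in bpc4 bpc6, and 287 and 238 in the triple mutant. Each genotype was separate from the others there, bpc4 bpc6 being lowest and the triple mutant highest. The only negative call was that of 260471_AT, at -2.24 ± 0.23 (limma adjusted p = 0.011), and it ended without lhp1-4 replicate 1 (adjusted p = 0.053) or replicate 2 (0.0521). For 245228_AT the call ended without lhp1-4 replicate 2, at an adjusted p of 0.050, just above the threshold.

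Loss of BPC4 and BPC6 with LHP1 in place left the members near their wild type level, as the rule required on the upper side. The median log2 difference between bpc4 bpc6 and wild type was -0.01, it lay within 0.2 of 0 in 98 members, and the lowest was -1.11. The rule set no lower limit, and 22 members were more than 0.5 below wild type. Limma called 2 members lower in bpc4 bpc6, or 0.844%, a share near the 0.841% of all probe sets. The 22 had median intensities of 34.4 in wild type, 19.1 in bpc4 bpc6, 105 in lhp1-4 and 172 in the triple mutant. Across members the bpc4 bpc6 difference with LHP1 and that without it correlated at Pearson's r = 0.14 and Spearman's rho = 0.14 (n = 237 probe sets). These differences share no array, but the rule limited the first and used the genotype means behind the second. The correlation is therefore a description.

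Split by wild type level, the triple mutant minus lhp1-4 differences of the members are given as a description, since all 3 genotypes entered the rule. Members under 30 in wild type had a median log2 difference of 0.61, with 40 of 132 called higher in the triple mutant, where 3.08% of the probe sets of settled level in that range were called higher. Those of 30 to 100 had 0.52, with 11 of 53 called higher, against 2.95% in that range. Those of 100 or more had 0.55, with 16 of 52 called higher, against 2.50% in that range. The 3 members called lower were all under 30 in wild type, a range in which 0.441% of the probe sets of settled level were called lower. Median intensities of the members at 100 or more were 180 in wild type, 199 in bpc4 bpc6, 583 in lhp1-4 and 818 in the triple mutant.

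Members whose identifier carries the suffix that marks probes shared by several transcripts (_S_AT) numbered 9, or 3.80%, against 4.11% of all probe sets, and none carried the suffix for probes that may cross-hybridise (_X_AT), which 0.555% of all probe sets carried. The threshold cut through a dense range. The members just inside it had a smaller difference of 1.0007 and 1.0011, the probe sets just outside had 0.9983 and 0.9968, and 52 probe sets lay within 0.1 below the threshold as well as 52 members within 0.1 above it.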

How the data were processed

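Shoot RNA of 4 genotypes, 2 arrays each, was amplified into biotin-labelled cRNA, per the labels' protocols. The authors deposited 1 intensity for each probe set on each array, made with RMA (background correction, quantile normalization, probe summary), per the submitters' processing notes; neither its version nor the probe set definition is given there. Deposited intensities ran from 1.0 to 999.7, and 635 replicate pairs differed over 100-fold, from which it was inferred, not stated by any label, that values of 1000 or more were divided by 1000. Values under 3, and values of 10 to 100 with 3 decimals, were multiplied by 1000. Other values of 10 to 100 were multiplied where this brought them within 5-fold of one of these in that probe set. A value of 3 to 10 was settled where 1 reading lay within 5-fold of a settled value and the other at least 20-fold away. This scaled values in 1763 probe sets and left 0 replicate pairs over 100-fold apart. In 5007 probe sets all values lay between 3 and 10 and were kept as they stood; 30 undecided and 1 control probe set were left out.

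Log2 intensities were tested in limma 3.58.1 (R 4.3.3) by a model of group means fitted to the 8 arrays together, 4 residual and 2.85 prior degrees of freedom, and Benjamini-Hochberg adjustment over 22716 probe sets. No pseudocount or filter was used; the number of arrays limits the precision. Errors are moderated standard errors, with a median of 0.20 for a difference between genotypes in the members and 0.13 over all probe sets. Genotype means are geometric. Restoration and test were tested on simulated data. Members, lists and tests were chosen with earlier results of these data known. Lists of floral, flowering time, meristem, seed, Polycomb, auxin and senescence genes and tissue markers had been set down, but none could be applied, since no probe set is paired with a gene. The rule for named members (the largest in both backgrounds, the largest triple mutant minus lhp1-4 differences and interactions among calls) was therefore cut to 2 identifiers per direction, with ranges for the rest. Alternatives were 2 scalings, a replicate block, a dim filter, unscaled probe sets, values as deposited, fewer arrays and other thresholds; the 237 members were held fixed in counts of calls.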

Additional observations from a re-analysis of the deposited data

Results flagged for a closer look

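In 3 named members limma's interaction term set the lhp1-4 difference in one background apart from that in the other. Both differences entered the rule for members, and the 3 were named for the largest interactions in each direction among the calls, so their adjusted p describes them and is no independent test. Leaving out 1 array gave an interaction of 3.26 to 3.67 in 265511_AT. With all arrays the lhp1-4 difference was larger there without BPC4 and BPC6 by 3.47 (log2, limma adjusted p = 0.00487). It was larger by 2.87 in 245228_AT (limma adjusted p = 0.00801; 0.0223 to 0.050 when 1 array was left out). In 260471_AT the interaction was -2.24 (limma adjusted p = 0.011; 0.0253 to 0.053 when 1 array was left out), the lhp1-4 difference being 4.01 with BPC4 and BPC6 and 1.77 without them.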

How the results depend on the processing

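The number of members was 204 to 306 under both scalings, the dim filter and the values as deposited, of which 200 to 221 were among the 237. It was 214 to 271 when 1 array was left out, of which 186 to 227 were among the 237. The fewest, 186, remained without wild type replicate 2. Other thresholds gave 367 (0.8) and 94 (1.5), and unscaled probe sets read on their own gave 156. Leaving out 1 array gave 8 to 63 members called higher in the triple mutant than in lhp1-4 and 1 to 4 called lower, 3 to 27 positive and 0 to 1 negative interactions, 289 to 1832 calls of lhp1-4 against wild type (1366 with all arrays; 289 lacking lhp1-4 replicate 1, 358 lacking replicate 2, 669 lacking wild type replicate 1) and 2845 to 5021 of the triple mutant against bpc4 bpc6 (4863; lowest without bpc4 bpc6 replicate 2). The 0 arose without lhp1-4 replicate 1 or 2, with 5 and 10 at unadjusted p under 0.05 in limma. Fewer arrays also lower the degrees of freedom. Members called lower than lhp1-4 numbered 10 as deposited, 5 after the dim filter, 1 with only these genotypes in the model and 0 in unscaled probe sets (8 at unadjusted p under 0.05), which do not hold the 3 members concerned. Positive interactions numbered 25 as deposited, 33 after quantile normalization, 50 after centring and 55 after the dim filter. Negative ones numbered 8 as deposited, 2 after the dim filter and 2 after centring. For 265511_AT the values as deposited reversed the triple mutant minus lhp1-4 difference to -6.86 and the interaction to -6.50, by construction of the scale. The triple mutant exceeded lhp1-4 in 190 and 187 members after centring and quantile normalization. Deviations of arrays from their genotype mean correlated at -0.184 to 0.231 between equal replicate numbers of different genotypes. With 2 arrays per genotype, unequal numbers give the same values with the sign reversed and add no separate comparison. Whether equal replicate numbers mark a shared batch was not tested. With the replicate block 73 members were called higher and 4 lower in the triple mutant than in lhp1-4, with 43 positive and 1 negative interactions.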

Other observations

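A further 101 probe sets were at least 2-fold higher over both controls but were left out because bpc4 bpc6 lay at least 0.5 above wild type. Their median intensities were 31.8 in wild type, 63.6 in bpc4 bpc6, 122 in lhp1-4 and 221 in the triple mutant, with the bpc4 bpc6 level set by the way they were chosen. The 156 probe sets that were at least 2-fold higher in lhp1-4 than in wild type, but not in the triple mutant over bpc4 bpc6, stood at 40.1, 80.4, 102 and 102 in the same order. Both sets are descriptions of the rule's other outcomes and were not tested.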
